A study of Macaca mulatta with 10 samples.

Results

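Proteoglycans, and the enzymes that build and sulfate their sugar chains, were followed across 5 nuclei of the monkey dorsal thalamus. Members were chosen by gene symbol: the heparan sulfate chain polymerases EXT1 and EXT2 and the EXTL enzymes, the NDST, HS2ST, HS6ST and HS3ST sulfotransferases of heparan sulfate, the CHSY, CHPF and CSGALNACT enzymes of chondroitin sulfate chains, the CHST sulfotransferases, the glypicans, the syndecans, the lecticans ACAN, BCAN, NCAN and VCAN, and the net components HAPLN1, HAPLN2 and TNR. The rule found 46 of the 11963 genes measured. It reads symbols and no measured value, but the members were chosen with earlier results of these data known. The shares of members called below are therefore not those of a list set blind to the data. One of the 46, GPC1-AS1, is an antisense RNA that shares only the letters of the symbol, which leaves 45 other genes. The CHST family was taken whole, so some of these, such as CHST10, act on carbohydrates other than proteoglycan chains.

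The tissue was micro-punches from untreated adult rhesus monkeys (Macaca mulatta), and the 10 arrays were shared evenly, 2 each, by Ventral Thalamus, Pulvinar, Medial Thalamus, Centre Median and Anterior Thalamus. Total RNA labelled with biotin was hybridised to an Affymetrix array whose probes were designed for human transcripts, so a probe may bind the monkey transcript weakly and a low intensity is not absence. The labels number the arrays of each nucleus 1 and 2 and do not say whether the numbers stand for animals, pools of animals or repeat punches, so every p-value below measures the spread between these arrays only. A punch holds many cell types, and fewer cells of a type cannot be told apart from less RNA per cell.

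A proteoglycan is a core protein that carries long sulfated sugar chains. Heparan sulfate chains sit mainly on syndecans, which cross the cell membrane, and on glypicans, which are anchored to it by a lipid, and the pattern of sulfates along a chain decides which growth factors and adhesion proteins it holds. Chondroitin sulfate chains sit on the lecticans. Link proteins tie the lecticans to hyaluronan, and tenascin-R crosslinks lecticans. In the brain this lectican matrix fills the space between cells and condenses into perineuronal nets, often around fast-spiking neurons that contain parvalbumin, and around nodes of Ranvier.

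All levels are log2(intensity + 1), so that a step of 1 is a doubling, and differences are on the same scale. Levels are compared between nuclei for 1 gene and not between genes, since probe sets differ in brightness. The median intensity of an array was 94.2 to 101. The dimmest probe set of an array had an intensity of 12.0 to 12.3 in the replicate 1 set and 9.49 to 9.55 in the replicate 2 set. The log2 ratio of the 3′ to the 5′ probe set of actin, a sign of RNA integrity, was -0.09 to 1.22 in the replicate 1 set and 1.15 to 1.64 in the replicate 2 set, and it was highest in Ventral Thalamus within each set. XIST, an RNA of the inactive X chromosome, was 9.86 to 10.34 in the replicate 2 set. In the replicate 1 set it was 8.96 in Centre Median and 9.60 in Pulvinar. It was 7.22 in Anterior Thalamus, 6.70 in Medial Thalamus and 6.86 in Ventral Thalamus there. RPS4Y1, a gene of the Y chromosome, ran the other way on these arrays, at 7.65, 7.22, 8.20, 8.16 and 8.94 in that order. The replicate 1 arrays thus differed among themselves by nucleus, and within that set this cannot be told apart from a difference between nuclei. The change from replicate 1 to replicate 2 was shared by the nuclei over all genes (each of 10 correlations at 0.758 to 0.831), and the tests were therefore run both with no block and with a replicate block. TCF7L2, a transcription factor of the thalamus, was at mean levels of 12.23 to 12.70 in all 5 nuclei, while LHX2, also listed as a thalamic marker, reached an intensity of 99.1 at most.

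The members differed between nuclei about as much as other genes did, with a few exceptions. The gap between the highest and lowest of the 5 nucleus means had a median of 0.25 over the 46 members and 0.23 over all 11963 genes. It exceeded 0.5 for 8 members (17.4%) and for 1003 genes overall (8.38%). The 8 were the heparan sulfate sulfotransferases HS3ST1 and NDST4, the sulfotransferases CHST15 and CHST1, the syndecans SDC2 and SDC4, the lectican VCAN and the link protein HAPLN2. Of the 46 members, 29 reached an intensity of 100 on at least 2 arrays and 17 did not, among them NDST4 and HAPLN1.

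Without the block, limma called 0 members at an adjusted p under 0.05, whether by the F test across the 5 nuclei (0% of all genes called), for Anterior Thalamus (0%), Centre Median (0.0251%), Medial Thalamus (0%), Pulvinar (0%) or Ventral Thalamus (0%) against the mean of the other 4 nuclei, or over the 10 pairs of nuclei (0.00418% of gene and pair combinations). In that order of nuclei, 0, 3, 2, 1 and 4 members had an unadjusted p under 0.05, beside 0.301%, 0.995%, 1.22%, 0.284% and 1.57% of all genes. With the replicate block the median residual SD of all genes fell from 0.220 to 0.126, and the F test called 2 members, HS3ST1 and CHST15, which is 4.35% of members beside 0.393% of all genes. Against the other nuclei the blocked fit called 2 members in Centre Median (0.176% of all genes called), 1 in Medial Thalamus (0.159%), 1 in Ventral Thalamus (0.527%), and 0 in Anterior Thalamus (0%) and Pulvinar (0%). All of these calls fell on HS3ST1 and CHST15. The unadjusted counts of the blocked fit were 3 members in Anterior Thalamus, 6 in Centre Median, 3 in Medial Thalamus, 2 in Pulvinar and 8 in Ventral Thalamus, beside 5.75%, 5.92%, 10.3%, 3.73% and 11.9% of all genes. The 5 comparisons are not independent, because a shift in one nucleus moves the mean that the others are set against.

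**Figure D1:**
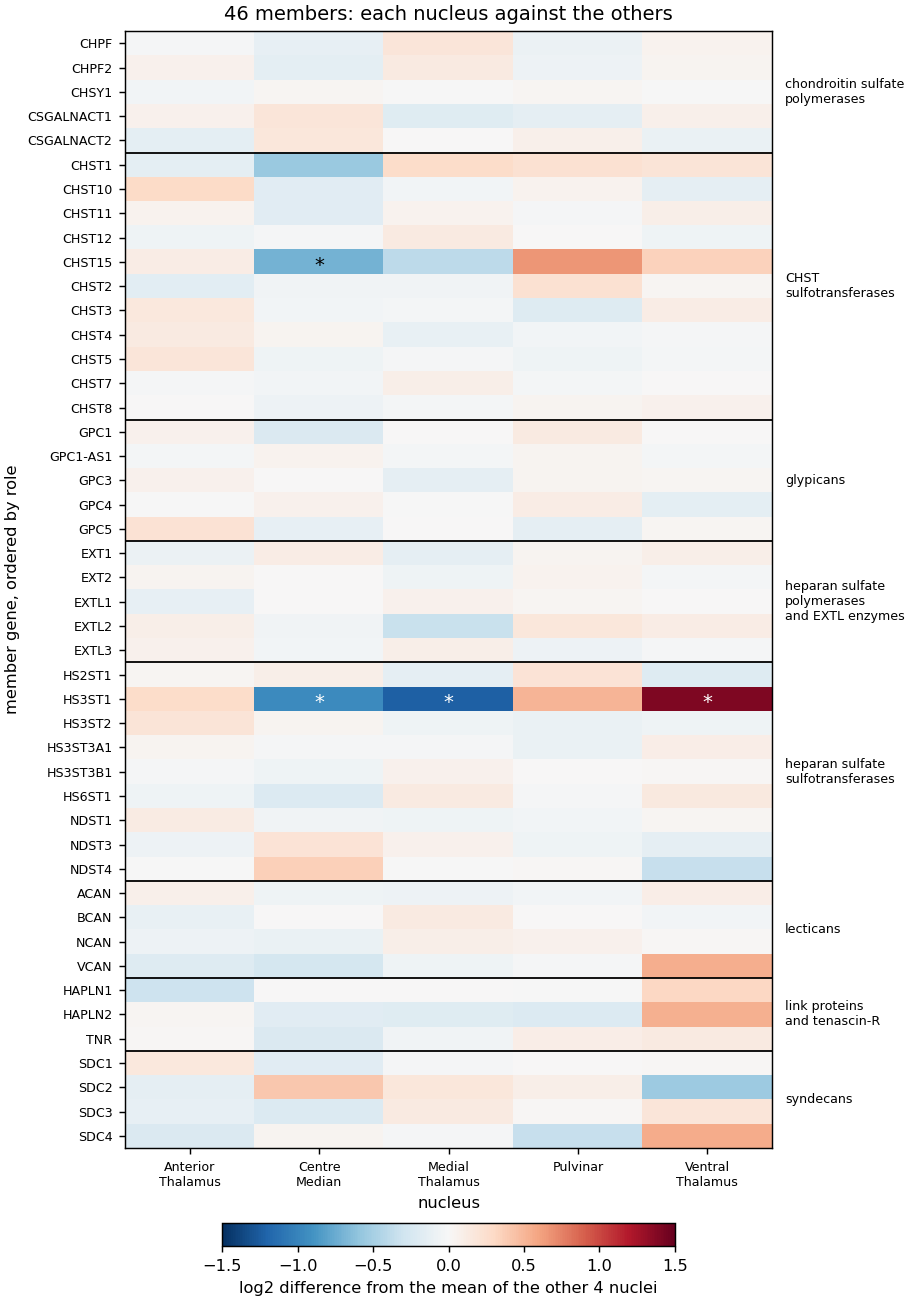
Log2 difference of each nucleus (columns) from the mean of the other 4 nuclei for the 46 members (rows, grouped by role); red is higher and blue lower, and an asterisk marks an adjusted p under 0.05 in the limma fit with the replicate block. The 4 asterisks lie on HS3ST1 (Centre Median, Medial Thalamus, Ventral Thalamus) and CHST15 (Centre Median), and most other cells are pale.

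HS3ST1, a sulfotransferase that places a late sulfate on glucosamine in heparan sulfate and so completes the site that antithrombin binds, had the widest range of the members, 2.10 between nucleus means or 4.30-fold. It was 7.08 and 8.26 in Ventral Thalamus on the replicate 1 and replicate 2 arrays. It was 6.31 and 7.60 in Pulvinar, and 6.48 and 7.07 in Anterior Thalamus. It was 5.31 and 6.27 in Centre Median, and 4.81 and 6.32 in Medial Thalamus. Ventral Thalamus held the highest array of both replicate sets, and Centre Median and Medial Thalamus held the lowest pair in both, while the replicate 2 array was the higher in every nucleus and the raw values of several nuclei overlapped. The means ± SD (n = 2 arrays each) were 7.67 ± 0.83 in Ventral Thalamus, 6.96 ± 0.91 in Pulvinar, 6.77 ± 0.42 in Anterior Thalamus, 5.79 ± 0.68 in Centre Median and 5.56 ± 1.07 in Medial Thalamus.

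With the block, HS3ST1 was 2.64-fold higher in Ventral Thalamus than in the mean of the others (7.67 against 6.27, log2 difference 1.40, SE 0.141, limma adjusted p = 0.0015), by 1.35 within the replicate 1 set and 1.44 within the replicate 2 set. It was 2.35-fold lower in Medial Thalamus (difference -1.23, limma adjusted p = 0.00411, within sets -1.48 and -0.98). It was 1.93-fold lower in Centre Median (difference -0.95, limma adjusted p = 0.0145, within sets -0.86 and -1.04). Pulvinar differed by 0.51 (95% interval 0.20 to 0.81, limma adjusted p = 0.999) and Anterior Thalamus by 0.28 (-0.03 to 0.58, limma adjusted p = 0.865), and neither passed. Without the block the SE was 0.519 and each of the 5 adjusted p-values was 1. The F test gave HS3ST1 the third smallest p of all genes with the block (limma adjusted p = 0.000671), and an adjusted p of 1 without it.

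Compared directly with the block, HS3ST1 was lower in Medial Thalamus than in Ventral Thalamus (difference -2.10, limma adjusted p = 0.000287) and lower in Centre Median than in Ventral Thalamus (-1.88, limma adjusted p = 0.000501). It was also lower than in Pulvinar, with differences of -1.39 for Medial Thalamus (limma adjusted p = 0.014) and -1.17 for Centre Median (limma adjusted p = 0.0284). No neighbours in the order of the means passed: Ventral Thalamus and Pulvinar (adjusted p = 0.41), Pulvinar and Anterior Thalamus (0.995), Anterior Thalamus and Centre Median (0.101), and Centre Median and Medial Thalamus (0.814), all by limma. Over the 10 pairs the blocked fit made 6 member calls of 460, or 1.30%, beside 0.176% over all genes, and 4 of the 6 were these. All genes were called at 1.08% for Medial Thalamus against Ventral Thalamus, 0.368% for Centre Median against Ventral Thalamus, 0.0502% for Medial Thalamus against Pulvinar and 0.0920% for Centre Median against Pulvinar. Each of the 2 Pulvinar calls was lost without Pulvinar replicate 1 or replicate 2, at differences of -1.51 and -1.28 for Medial Thalamus (limma adjusted p = 0.0776 and 0.106) and -1.28 and -1.05 for Centre Median (0.209 and 0.227), when Pulvinar was left with 1 array. The Centre Median one was also lost without Centre Median replicate 1 (-1.26, limma adjusted p = 0.491) or replicate 2 (-1.08, 0.237), and on quantile normalization (-1.14, 0.0509).

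**Figure D2:**
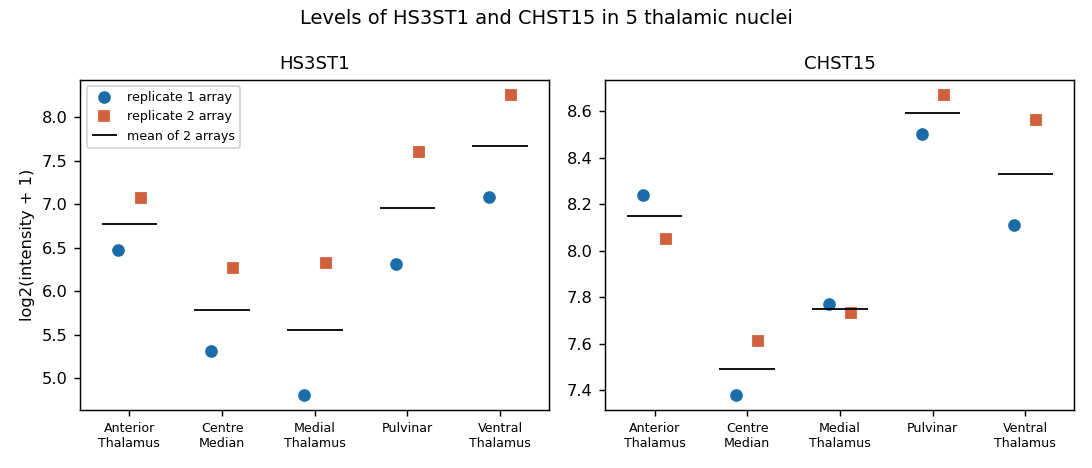
Levels of HS3ST1 (left) and CHST15 (right) as log2(intensity + 1) in the 5 nuclei, with the replicate 1 array as a circle, the replicate 2 array as a square and the mean of both as a line; the vertical axes do not start at 0. HS3ST1 is highest in Ventral Thalamus in both sets and 1.10 higher on average on the replicate 2 arrays, while CHST15 is highest in Pulvinar and lowest in Centre Median in both sets.

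The values of HS3ST1 rest on 1 of its 3 probe sets. The probe set with the highest mean, 205466_s_at, gave the levels above. The 205465_x_at probe set stayed between 5.38 and 5.68 on all 10 arrays, and 213991_s_at between 5.56 and 6.30. In Ventral Thalamus these differed from the others by 0.02 and -0.16, neither of which passed (limma adjusted p = 0.971 and 0.618 with every probe set tested on its own). Averaging the 3 probe sets ended the 3 calls, with differences in the blocked fit of 0.42 in Ventral Thalamus (limma adjusted p = 0.107), -0.43 in Medial Thalamus (0.122) and -0.34 in Centre Median (0.352). It also ended the pair calls of Centre Median with Ventral Thalamus (0.0755) and of Pulvinar with Medial Thalamus (0.238) and Centre Median (0.58), and left that of Medial Thalamus with Ventral Thalamus. A suffix of s or x marks a probe set whose probes can match more than 1 transcript, and all 3 carry such a suffix. The actin ratio was also highest in Ventral Thalamus, and with it as a covariate the Ventral Thalamus difference was 1.20 (limma adjusted p = 0.112), while the Medial Thalamus and Centre Median calls held at 0.0181 and 0.0154. The Ventral Thalamus call was lost without Ventral Thalamus replicate 2 (limma adjusted p = 0.056), and the Centre Median call without either Centre Median array (0.355 and 0.273) and with blocks that also separate the replicate 1 arrays by XIST (0.0652).

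**Figure D3:**
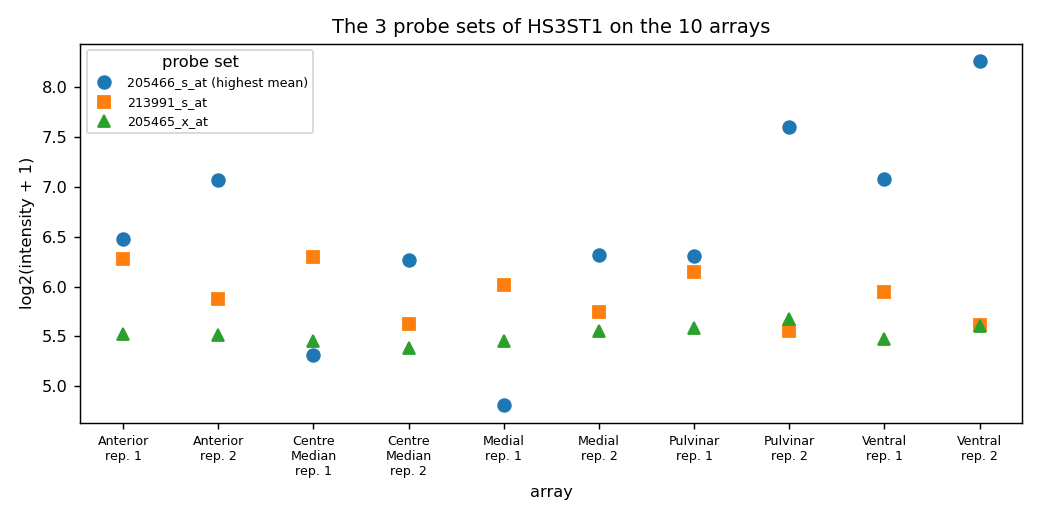
Level of each of the 3 probe sets of HS3ST1, as log2(intensity + 1), on the 10 arrays; the vertical axis does not start at 0. The probe set 205466_s_at runs from 4.81 to 8.26, while 205465_x_at stays between 5.38 and 5.68 and 213991_s_at between 5.56 and 6.30.

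Of the other 8 heparan sulfate sulfotransferases, NDST4 had a range of 0.57 between nucleus means and the rest had 0.12 to 0.31. NDST4, one of the enzymes that replace the acetyl group of glucosamine with sulfate and so begin sulfation, had low intensities throughout. It was 6.15 on both Centre Median arrays, 5.75 and 5.40 in Ventral Thalamus, and 5.72 to 5.99 on the other arrays, so Centre Median was highest and Ventral Thalamus lowest in both sets. With the block it differed by 0.36 in Centre Median (limma adjusted p = 0.248) and -0.35 in Ventral Thalamus (limma adjusted p = 0.125), and neither passed. NDST1 and NDST3, of the same family, had ranges of 0.14 and 0.26 between nucleus means. HS2ST1, which sulfates the uronic acid of the chain, had a range of 0.31, and HS6ST1, which sulfates glucosamine at another position, 0.29. HS3ST2, the HS3ST enzyme known from neurons, had a range of 0.23, and HS3ST3A1 and HS3ST3B1 had 0.16 and 0.12.

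The enzymes that polymerise heparan sulfate had ranges of 0.09 to 0.39. EXT1 and EXT2 form the copolymerase of the chain, and their ranges were 0.20 and 0.09. EXTL2, a glycosyltransferase that acts on the linker between core protein and chain, had the widest range of the 5. Its level was 8.67 and 9.24 in Medial Thalamus, 8.98 and 9.37 in Centre Median, 9.25 and 9.32 in Anterior Thalamus, 9.29 and 9.40 in Pulvinar, and 9.09 and 9.51 in Ventral Thalamus. Medial Thalamus was lowest in both sets and differed by -0.33 in the blocked fit, which did not pass (limma adjusted p = 0.34). EXTL1 and EXTL3, of which EXTL3 starts the heparan sulfate chain, had ranges of 0.16 and 0.14.

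CHST15 adds the second sulfate that turns chondroitin sulfate A into the disulfated E form. It was 8.50 and 8.67 in Pulvinar and 8.11 and 8.56 in Ventral Thalamus. It was 7.38 and 7.61 in Centre Median, 7.77 and 7.73 in Medial Thalamus, and 8.24 and 8.05 in Anterior Thalamus. Pulvinar was highest and Centre Median lowest in both sets, the Centre Median arrays lay below the 8 others, and the replicate sets differed by only 0.12 on average (limma adjusted p = 0.297). The means ± SD (n = 2 arrays each) were 8.59 ± 0.12 in Pulvinar, 8.33 ± 0.32 in Ventral Thalamus, 8.15 ± 0.13 in Anterior Thalamus, 7.75 ± 0.03 in Medial Thalamus and 7.49 ± 0.16 in Centre Median, a range of 1.09 or 2.13-fold.

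With the block, CHST15 was 1.63-fold lower in Centre Median than in the mean of the others (7.49 against 8.20, log2 difference -0.71, SE 0.121, limma adjusted p = 0.0407; within sets -0.77 and -0.64). It differed by 0.66 in Pulvinar, 1.57-fold (limma adjusted p = 0.254, within sets 0.63 and 0.68), by -0.39 in Medial Thalamus (0.254) and by 0.34 in Ventral Thalamus (0.271), none of which passed. The F test called it with the block (limma adjusted p = 0.0268) and not without it (adjusted p = 1, unadjusted p = 0.00357, the 15th smallest of all genes). Directly, it was lower in Centre Median than in Pulvinar (difference -1.09, limma adjusted p = 0.0174) and than in Ventral Thalamus (-0.84, limma adjusted p = 0.0381). Medial Thalamus against Pulvinar (0.0878), Medial Thalamus against Ventral Thalamus (0.0889) and Anterior Thalamus against Centre Median (0.304) did not pass by limma.

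The call of CHST15 in Centre Median lay close to the threshold. It was lost on quantile normalization (limma adjusted p = 0.0554), when probe sets of other genes were averaged (0.07), and when arrays of the replicate 1 set were put in separate blocks by their XIST level (0.169). It was lost as well without Centre Median replicate 1 (0.942) or replicate 2 (0.226), Pulvinar replicate 1 (0.0869) or replicate 2 (0.0679), Anterior Thalamus replicate 1 (0.0672), or Ventral Thalamus replicate 2 (0.053). The difference in the fits where it was lost was -0.77 to -0.64, beside -0.71. The pair with Pulvinar was lost without either Centre Median array (0.512 and 0.0856) or either Pulvinar array (0.209 and 0.119). The difference from Pulvinar was -1.16 to -1.03 in these fits. The pair with Ventral Thalamus was lost without either Centre Median array (0.394 and 0.224, at -0.77 and -0.90) or without Ventral Thalamus replicate 2 (0.343, at -0.63). It was lost also on quantile normalization (-0.79, limma adjusted p = 0.0867), with averaged probe sets (-0.84, 0.0656), with the actin covariate (-1.16, 0.0552) and with the XIST blocks (-0.77, 0.121). CHST15 has 1 probe set, so no second one bears on it.

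CHST1, which sulfates the galactose of keratan sulfate, was 9.14 and 8.80 in Centre Median. It was 9.81 and 9.49 in Medial Thalamus, 9.10 and 9.51 in Anterior Thalamus, 9.69 and 9.53 in Pulvinar, and 9.97 and 9.18 in Ventral Thalamus. Centre Median differed by -0.56 with the block (limma adjusted p = 0.412), and Anterior Thalamus replicate 1 lay below the higher Centre Median array. CHST10, which makes the sulfated HNK carbohydrate of neural adhesion proteins, was 8.31 and 8.07 in Anterior Thalamus and 7.76 to 8.09 on the other arrays. It was highest in Anterior Thalamus within both sets, and the difference of 0.29 did not pass (limma adjusted p = 0.807). CHST2, a sulfotransferase of N-acetylglucosamine, was 8.12 and 8.33 in Pulvinar and 7.73 to 8.21 on the other arrays, with a blocked difference of 0.23 (limma adjusted p = 0.999). The other 7 CHST genes, among them CHST3, CHST11 and CHST12 of chondroitin sulfate, had ranges of 0.11 to 0.28.

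The enzymes that start and extend chondroitin sulfate chains had ranges of 0.06 to 0.29. CHSY1, a chondroitin polymerase, differed least among them, with nucleus means of 5.91 to 5.97. CHPF and CHPF2, its partner factors, were highest on average in Medial Thalamus (8.13 and 8.04) and lowest in Centre Median (7.89 and 7.80). CSGALNACT1 and CSGALNACT2, which add the residue that commits a chain to chondroitin sulfate, had ranges of 0.29 and 0.26 at low intensities. Of the 5, 0 passed in any of the comparisons between nuclei.

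The 4 glypicans also had narrow ranges, 0.15 to 0.28. GPC1, the main glypican of adult neurons, was 7.39 and 7.75 in Centre Median and 7.54 to 8.06 on the other arrays, and Centre Median was lowest within both sets. On its other probe set, 202755_s_at, Ventral Thalamus was the lowest of the replicate 2 set (5.84, beside 6.04 in Centre Median). GPC5 was 6.13 and 6.22 in Anterior Thalamus and 5.81 to 6.16 elsewhere, a blocked difference of 0.22 (limma adjusted p = 0.859). GPC3, GPC4 and GPC5 did not reach an intensity of 100 on 2 arrays. GPC4, which astrocytes release to promote synapses, differed by -0.15 in Ventral Thalamus (95% interval -0.37 to 0.06). Its other probe set, 204984_at, differed by 0.08 there.

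The median range of the syndecans was 0.52, beside 0.16 to 0.49 for the other roles. SDC2, a syndecan of dendritic spines, was 7.14 and 8.32 in Ventral Thalamus, 7.52 and 8.96 in Pulvinar, 7.94 and 8.66 in Medial Thalamus, 7.56 and 8.54 in Anterior Thalamus, and 8.14 and 8.85 in Centre Median. Ventral Thalamus was lowest in both sets, although its replicate 2 array lay above every replicate 1 array. The blocked difference of -0.54 did not pass (SE 0.135, limma adjusted p = 0.114, within sets -0.64 and -0.43), and the other probe sets of SDC2 differed by -0.49 and -0.05. SDC4, a syndecan of focal adhesions, was 9.53 and 9.47 in Ventral Thalamus and 8.36 to 9.21 on the 8 other arrays, so the groups did not overlap. The share of all genes without such overlap was not counted. By a looser condition, Ventral Thalamus was highest within both sets for 8.69% of all genes. The blocked difference of SDC4, 0.56, did not pass (95% interval 0.18 to 0.94, limma adjusted p = 0.208). SDC1 and SDC3, the latter a syndecan of axons, had ranges of 0.27 and 0.31.

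The lecticans of the net, apart from VCAN, were nearly level across nuclei. ACAN, the lectican most tied to perineuronal nets, had nucleus means of 7.20 to 7.34, and in Ventral Thalamus it differed by 0.10 (95% interval -0.12 to 0.32). BCAN had means of 8.75 to 8.95 and NCAN of 9.07 to 9.23, and their Ventral Thalamus intervals were -0.25 to 0.18 and -0.34 to 0.39. Parvalbumin itself (PVALB) was lowest in Medial Thalamus (mean 8.60) and Anterior Thalamus (8.78), intermediate in Pulvinar (9.83), and highest in Centre Median (10.85) and Ventral Thalamus (10.93), with no nucleus passing (limma adjusted p = 0.138 to 0.999). The nucleus means of PVALB thus spanned over 2 log2 units, and those of the brightest ACAN probe set, 217161_x_at, spanned 0.14. The other ACAN probe sets differed by 0.11 and -0.12 in Ventral Thalamus. Spans of different probe sets need not be comparable, and a link between PVALB and ACAN was not tested. VCAN, a lectican of white matter, was 7.98 and 7.70 in Ventral Thalamus and 6.96 to 7.69 in Anterior Thalamus, Centre Median and Medial Thalamus, while Pulvinar held both the lowest array (6.78, replicate 1) and the highest (replicate 2). Ventral Thalamus exceeded the others by 1.02 within the replicate 1 set and by 0.06 within the replicate 2 set (blocked difference 0.54, limma adjusted p = 0.269). The other 4 probe sets of VCAN differed by -0.02 to 0.25.

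HAPLN2, a link protein of the matrix at nodes of Ranvier, was 7.76 and 8.43 in Ventral Thalamus. It was 7.77 and 7.61 in Anterior Thalamus, 7.42 and 7.65 in Centre Median, 7.55 and 7.50 in Medial Thalamus, and 7.38 and 7.62 in Pulvinar. The replicate 2 array of Ventral Thalamus was the highest, while its replicate 1 array lay just below that of Anterior Thalamus. The blocked difference of 0.53 (8.10 against 7.56) did not pass (limma adjusted p = 0.114, within sets 0.24 and 0.83). HAPLN1, a link protein of perineuronal nets, was 6.04 and 5.93 in Anterior Thalamus, 6.37 and 6.58 in Ventral Thalamus, and 6.05 to 6.42 elsewhere. It was lowest in Anterior Thalamus within both sets (difference -0.31, limma adjusted p = 0.807), and in Ventral Thalamus it differed by 0.31 (limma adjusted p = 0.273). A second probe set of HAPLN1, of low intensity (mean 4.78), differed by 0.58 there and did not pass (limma adjusted p = 0.0937). It was 4.83 and 5.66 in Ventral Thalamus and 4.45 to 4.96 on the other arrays, so only the replicate 2 array stood apart. TNR, tenascin-R, which crosslinks lecticans and is made by oligodendrocytes, was 9.51 and 9.71 in Ventral Thalamus, 9.59 and 9.56 in Pulvinar, 9.23 and 9.69 in Medial Thalamus, 9.37 and 9.65 in Anterior Thalamus, and 9.36 and 9.28 in Centre Median. Both Centre Median arrays lay below those of Anterior Thalamus, Pulvinar and Ventral Thalamus, and the other nuclei overlapped with each other. The Ventral Thalamus difference of TNR was 0.14 (95% interval -0.13 to 0.41).

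**Figure D4:**
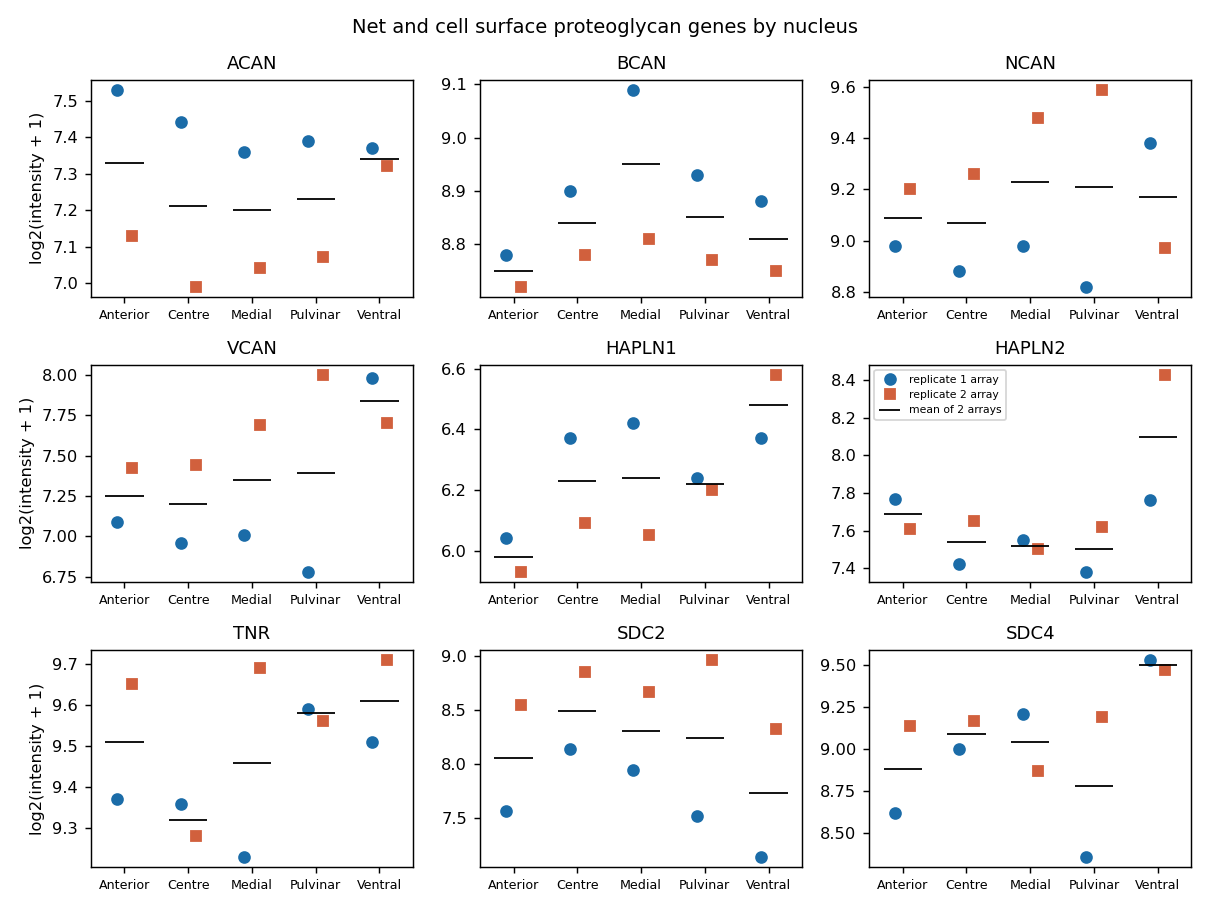
Levels of 9 matrix and cell surface members, as log2(intensity + 1), in the 5 nuclei (Centre is Centre Median), with the replicate 1 array as a circle, the replicate 2 array as a square and the mean as a line; each panel has its own vertical axis, which does not start at 0. SDC4 is higher on both Ventral Thalamus arrays (9.53 and 9.47) than on all others, and the ACAN means stay between 7.20 and 7.34.

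Some cell type markers also differed in Ventral Thalamus and Medial Thalamus. All 5 measured oligodendrocyte markers of 6 listed were above the other nuclei in Ventral Thalamus (median difference 0.86), and MAG and CNP passed (0.86 and 0.87, limma adjusted p = 0.0112 and 0.021 with the block). Their summed level was 13.86 and 14.15 in Ventral Thalamus and 12.82 to 13.86 in the other nuclei. Of the 5 measured neuron markers 4 were above the others there, and NEFM passed (1.68, limma adjusted p = 0.0049). The summed neuron level was 13.68 and 14.39 there and 13.12 to 13.91 elsewhere. Of the 6 astrocyte markers 3 were above and 3 below the others there (median difference 0.03), and GFAP was lower (-1.11, limma adjusted p = 0.0378). The summed astrocyte level was 12.59 and 12.93 there and 12.30 to 13.45 elsewhere. The 3 measured markers of parvalbumin and GABA neurons were all above the others there (median difference 0.49), and none passed by limma. Their summed level was 11.43 and 12.51 in Ventral Thalamus and 10.07 to 11.94 elsewhere. In Pulvinar these 3 were also all above the others (median difference 0.21). In Medial Thalamus the 3 measured markers of parvalbumin and GABA neurons were all below the other nuclei and GAD1 passed (-1.06, limma adjusted p = 0.0317). The summed level of these 3 was 10.07 and 10.81 there and 10.70 to 12.51 elsewhere. The 5 oligodendrocyte markers were also all below the other nuclei in Medial Thalamus (median -0.58) and 4 of the 5 neuron markers were below (median -0.42), while 5 of the 6 astrocyte markers were above (median 0.10), and none of these passed by limma with the block. MAG was closest to the threshold with a difference of -0.68 (limma adjusted p = 0.0522), followed by GFAP with 1.12 (limma adjusted p = 0.0545). The summed level of meningeal and choroid plexus markers was 12.52 on Medial Thalamus replicate 2 and 9.85 to 10.28 on the other arrays. This sum weighs the brightest gene most: TTR reached an intensity of 4660, and the next, DCN, 726. In Medial Thalamus TTR differed by 2.12, COL1A2 by 0.78, DCN by 0.29, COL1A1 by 0.04 and LUM by -0.04, and none passed by limma with the block. The part of these differences in HS3ST1, HAPLN2 and the other members was not tested.

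Other genes of proteoglycan biology were counted beside the members: 77 genes of linker and sulfate supply, chain editing, other core proteins, net partners, receptors and breakdown, of which 59 were measured. In the 5 comparisons of a nucleus with the others, limma called 0 of the 59 in either direction in either fit. At an unadjusted p under 0.05 the blocked fit had 8 in Anterior Thalamus (13.6%, beside 5.75% of all genes), 5 in Centre Median (8.47%, beside 5.92%), 7 in Medial Thalamus (11.9%, beside 10.3%), 5 in Pulvinar (8.47%, beside 3.73%) and 5 in Ventral Thalamus (8.47%, beside 11.9%). The fit without the block had 1, 0, 1, 1 and 2 in that order.

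Members whose nucleus was the highest or the lowest of the 5 in both replicate sets were counted without any test. In Anterior Thalamus there were 6 (13.0% of members, 7.73% of all genes), with CHST10, CHST3, CHST4 and CHST5 highest and BCAN and HAPLN1 lowest. In Centre Median there were 5 (10.9%, 7.65% of all genes), with CSGALNACT2 and NDST4 highest and CHPF2, CHST15 and GPC1 lowest. Medial Thalamus had 4 (8.70%, 10.5% of all genes), with CHPF, CHST7 and BCAN highest and EXTL2 lowest. Pulvinar had 2 (4.35%, 5.74% of all genes), CHST15 highest and CHST3 lowest. Ventral Thalamus had 5 (10.9%, 14.5% of all genes), with HS3ST1, HS3ST3A1 and SDC4 highest and NDST4 and SDC2 lowest. The shares of members lay on both sides of those of all genes. Each position is that of the brightest probe set, and others of a gene could differ. On 32094_at of CHST3, Anterior Thalamus was the lowest of the replicate 1 set (7.58). On 219107_at of BCAN, Medial Thalamus was the lowest of the replicate 2 set (7.89).

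Many members differed between the replicate sets. Between replicate 2 and replicate 1 arrays limma called 20 members (43.5%), fewer in proportion than the 56.6% of all genes. Of these 9 were higher in the replicate 2 set (25.4% of all genes were) and 11 lower (31.1% of all genes were). HS3ST1 was higher by 1.10, HS2ST1 by 1.09 and SDC2 by 1.01, followed by CHSY1 by 0.68, EXT1 by 0.63, VCAN by 0.49, CSGALNACT2 by 0.48, and EXTL2 and GPC1 by 0.31 each. CHPF was lower, with a difference of -0.62, as were HS3ST2 (-0.56), SDC1 (-0.51), CHST11 (-0.35), ACAN (-0.31), CSGALNACT1 (-0.31), CHPF2 (-0.29), GPC3 (-0.27), CHST4 (-0.25), CHST3 (-0.24) and EXTL1 (-0.22). HS2ST1, for example, was 6.57, 6.57, 6.08, 6.63 and 6.51 in the replicate 1 set (nuclei in alphabetical order) and 7.51, 7.61, 7.74, 7.74 and 7.23 in the replicate 2 set, so the sets did not overlap. Its other probe sets stayed between 4.15 and 4.70 on all arrays. Each shift is that of the brightest probe set, and others of a gene could differ. Probe sets 202755_s_at of GPC1, 214985_at of EXT1 and 213991_s_at of HS3ST1 were lower on the replicate 2 array in every nucleus. By contrast, 204620_s_at of VCAN was higher in every nucleus. The median shift was -0.02 over members and -0.05 over all genes. The sets also differed in the actin ratio, XIST and the lowest intensity, as given above, and what the replicate number stands for cannot be told apart from these.

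**Figure D5:**
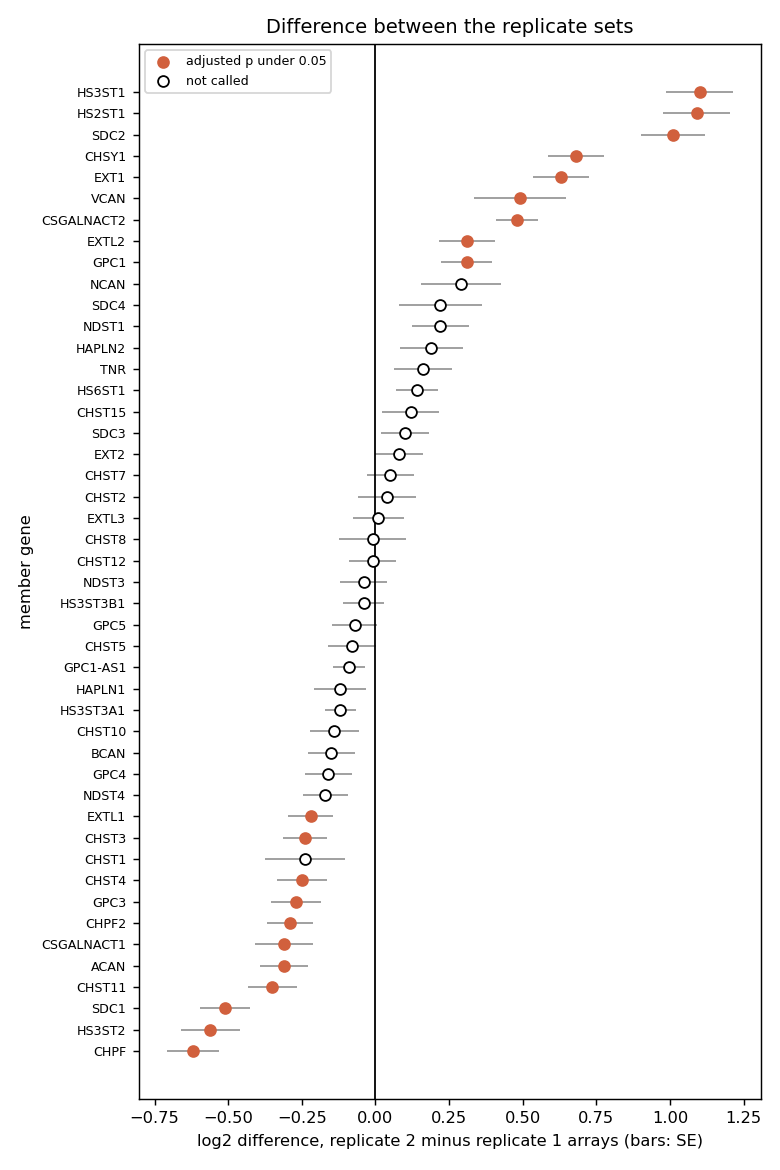
Log2 difference between the replicate 2 and replicate 1 arrays for each member, over the 5 nuclei, with bars of 1 SE; filled points had an adjusted p under 0.05 in limma. HS3ST1, HS2ST1 and SDC2 lie above 1, and CHPF at -0.62 is the lowest.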

How the data were processed

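The members and gene lists were chosen with earlier results of these data known. Per the submitters' processing notes, the authors computed the deposited intensity values with RMA (version not given in the sources used here). The values were on the linear scale, and log2(intensity + 1) was used, with a pseudocount of 1. Of 22283 probe sets, 68 controls, 1043 assigned to several genes and 2107 without a listed gene were left out, and 19065 remained. A gene was represented by its brightest probe set, by the mean over the 10 arrays; 74 probe sets covered the 46 members, and 19 members had several. No genome build or sequence table was used, so no coordinates or sequences are given.

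limma 3.58.1 in R 4.3.3 fitted 1 coefficient per nucleus (lmFit, eBayes with trend), with Benjamini-Hochberg adjustment over all 11963 genes within each comparison and calls at 0.05. Residual and prior degrees of freedom were 5 and 2.91 with no block, and 4 and 8.66 with a replicate block. The labels do not say what the numbers mark; the pairing was taken from the values, since each of the 10 correlations of the replicate difference between nuclei exceeded 0.1 (0.566 to 0.872 over the members alone). Precision is limited by the number of arrays. The script was tested on simulated data. Named members were those called in either fit, the 2 smallest p per nucleus in each fit, and the 3 highest means; SDC4, VCAN, GPC1, GPC5, HS2ST1 and other members given by role were chosen after their values were seen. Alternatives were quantile normalization, other pseudocounts, an intensity filter, averaged probe sets, no trend, an actin covariate and leaving out each array. Figures were drawn with matplotlib 3.10.9.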

Additional observations from a re-analysis of the deposited data

How the results depend on the processing

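Without the replicate block, the other settings (quantile normalization, no pseudocount or one of 32, only genes of at least 100 on 2 arrays, averaged probe sets, no trend, each array left out) gave 0 member calls between nuclei. With the replicate block, the F test called 2 members, Centre Median 2, Medial Thalamus 1, Ventral Thalamus 1 and the 10 pairs 6. With the block and the intensity filter these were 2, 2, 1, 1 and 6, with the block and quantile normalization 1, 1, 1, 1 and 4, and with the block and the actin covariate 2, 2, 1, 0 and 7. The 3-set block, which splits the replicate 1 arrays by XIST at a level of 8 and was chosen after seeing the data, gave 2, 0, 1, 1 and 5. Averaged probe sets with the block gave 0 except for 2 pair calls. Leaving out 1 array in turn with the block gave 1 to 2 for the F test, 0 to 2 for Centre Median, 1 for Medial Thalamus each time, 0 to 1 for Ventral Thalamus and 3 to 10 for the pairs, and 0 for all of these without the block. Anterior Thalamus and Pulvinar gave 0 under all 32 settings. The 20 calls between replicate sets became 13 with the intensity filter, which tests fewer genes, and 16 to 22 with 1 array left out. A nucleus left with 1 array is assumed to vary like the others. The next counts take the fit without the block as the baseline, where none of the 14 named comparisons passed. Keeping the side of the threshold thus meant not passing, and calls made with the block count among those that passed only in an alternative. Of 470 values of the 14 named comparisons, 421 kept their direction and side of the threshold, 47 passed only in an alternative, and 2 reversed without the block: HS3ST1 in Pulvinar without Pulvinar replicate 2 (-0.14; -0.14 to 1.15 over the arrays left out) and SDC2 in Ventral Thalamus without Ventral Thalamus replicate 1 (0.05; -1.13 to 0.05). The cause was not tested. Members with intensities near the lower end, 17 of 46 under the filter, may understate differences.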
